A study of Mus musculus with 15 samples.

Results

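The response of cells from leukemic Eμ-TCL1 spleens to ibrutinib was examined in 6 of the 15 RNA-Seq libraries of the study. They are all the libraries made from Eμ-TCL1 mice with intact Trp53 alleles: 3 from cells treated with ibrutinib (numbers 1, 3 and 4) and 3 from cells given the DMSO vehicle (numbers 2, 3 and 4). The other libraries come from Eμ-TCL1;p53R172H/+ mice, which carry the same transgene and a mutant Trp53 allele. In both genotypes the Eμ immunoglobulin enhancer drives the TCL1 oncogene in B-cells on a C57Bl/6 background. Cells were released mechanically from leukemic spleens, and the methods describe no sorting of B-cells by surface marker. Ibrutinib at 5 μM or vehicle was added in culture and RNA was collected after 24 h, so the treatment acted on explanted cells and not in the mouse. Mouse age and sex are not stated for these libraries, and neither is whether libraries with the same number hold cells of one mouse. P-values therefore measure the spread between these libraries, whatever its source. A question of the study was whether cells with and without an intact p53 pathway respond alike to ibrutinib, and the comparison with vehicle in Eμ-TCL1 cells is its p53-intact arm.

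Ibrutinib binds covalently to Bruton's tyrosine kinase (BTK), which relays signals from the B-cell receptor (BCR) through phospholipase C to calcium, ERK and NF-κB. Receptor signaling switches on immediate-early genes such as the EGR and NR4A transcription factors, then MYC and the genes of ribosome assembly and cell division, while AKT downstream of PI3K keeps FOXO transcription factors out of the nucleus. Leukemic B-cells of Eμ-TCL1 mice resemble CD5-positive B-1 cells, carry few distinct receptors per mouse, and depend in part on signals through that receptor.

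The deposited values are read counts scaled by the authors to an effective library size (CPM), in 1 table per treatment. Sequencing depth is unknown, so no counting interval is given. The tables hold 16470 genes for vehicle and 16428 for ibrutinib, 15869 genes are in both, and 15851 remained after 18 mitochondrial genes were dropped. Mitochondrial genes took 25.7%, 7.33% and 4.91% of the columns of vehicle 2, 3 and 4 and 23.2%, 37.2% and 9.03% of those of ibrutinib 1, 3 and 4. The share was thus higher in ibrutinib in both number pairs and not in ibrutinib 1 against vehicle 2, and its part in the differences below was not tested. Since each table was scaled on its own, every column was rescaled so that its typical gene, over 10670 genes with a mean of at least 5, equals the mean of the 6 libraries. The 3 vehicle columns were multiplied by 0.846 to 1.02 and the 3 ibrutinib columns by 1.17 to 1.21, so treatment and table cannot be told apart, and a shift of all genes together would not be seen. All values below are rescaled values. Log2 differences are ibrutinib minus vehicle on log2(value + 1), which understates changes of low genes.

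In their makeup 2 libraries stood apart, vehicle 2 and ibrutinib 1. Granulocyte markers (14 genes) summed to 33769 in vehicle 2 and 32234 in ibrutinib 1, against 37.6 to 249 in the other 4 libraries. Erythroid and megakaryocyte markers (14 genes) summed to 18691 and 19044, against 80.5 to 140 in the others. The macrophage lysozyme gene Lyz2 had values of 8116, 23.9 and 55 in vehicle and 7128, 197 and 58.3 in ibrutinib, listed, as for every gene below, in the order vehicle 2, 3 and 4 and ibrutinib 1, 3 and 4. B-cell markers (11 genes) were present in all 6 libraries but lower in these, with sums of 5768 and 5344, against 14721 to 17361. The heavy-chain variable gene with the highest value was Ighv9-3 in vehicle 2 and ibrutinib 1, with 58.6% and 53.7% of the summed heavy-chain variable values, and Ighv1-55 in the other 4 libraries, with 87.2% to 99.6%. Ighv5-9-1 came second in vehicle 3 and ibrutinib 3, with 10.8% and 12.5%. Ighv11-2 did so in vehicle 4 and ibrutinib 4, with 0.118% and 0.148%, at values of only 1.2 and 2. In vehicle 2 and ibrutinib 1 the second gene was Ighv1-55, with 22.9% and 26.6%. The leading light-chain variable gene was Igkv3-5 in vehicle 2 and ibrutinib 1 and Igkv12-89 in the other 4. Sequences of these segments are similar, which makes the assignment of reads to single segments uncertain. Xist ranged from 782 to 2038 and Ddx3y, on the Y chromosome, was listed at 0 in all 6 libraries.

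**Figure D1:**
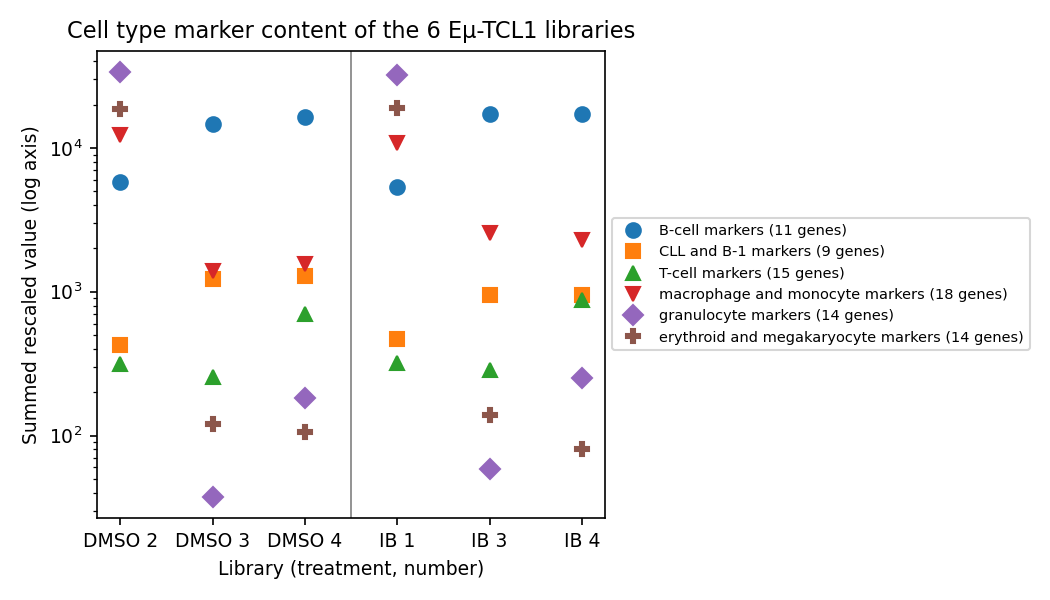
Summed rescaled value (vertical log axis) of 6 marker lists in each Eμ-TCL1 library (horizontal axis, treatment and number), with 1 symbol per list. Granulocyte and erythroid markers stand at 18691 or more in vehicle 2 and ibrutinib 1 and at 249 or less in the other 4 libraries.

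Across 10762 genes with a mean of at least 5, log2 levels of ibrutinib 1 and vehicle 2 correlated at 0.986, those of ibrutinib 3 and vehicle 3 at 0.930, and those of ibrutinib 4 and vehicle 4 at 0.945, as a description over genes of single libraries. Only 21 of these genes differed by at least 2-fold between ibrutinib 1 and vehicle 2, against 1352 in number pair 3 and 894 in number pair 4. Labels do not join ibrutinib 1 with vehicle 2, and their difference is given below as a plain value. Whether they hold cells of one mouse is not stated, so it is unknown whether this difference is that of a further treated pair. Many results over the 6 libraries are also given within number pairs 3 and 4, which leave both of these libraries out. In bulk RNA, fewer cells of a type and less RNA per cell cannot be told apart.

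With limma over the 6 libraries, 0 of 15851 genes were called at an adjusted p under 0.05 (0% of the genes tested). The smallest adjusted p was 1, and it was 0.263 within numbers 3 and 4 alone, where 0 genes were called as well. Unadjusted p-values under 0.05 were found for 325 genes (2.05%), of which 203 were higher and 122 lower in ibrutinib. An exact permutation test of 3 against 3 libraries cannot give a two-sided p below 0.1. In 663 genes all ibrutinib values lay above all vehicle values (4.18%), and in 463 genes all lay below (2.92%), 7.1% together. Without rescaling, 99 genes lay above and 1952 below, and the median difference of all genes was -0.21 in place of 0.05, so the balance of directions follows from the scaling and single genes are read against that shift.

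Within number pairs 3 and 4 the differences were larger than between ibrutinib 1 and vehicle 2. At least 2-fold differences in both pairs were seen for 298 genes higher in ibrutinib (1.88% of the genes tested) and 256 genes lower (1.62%). Of those higher genes, 185 were also higher in ibrutinib 1 than in vehicle 2, and 1 by at least 2-fold. Of those lower genes, 113 were lower in ibrutinib 1, and 0 by at least 2-fold. Over all 15851 genes, 48 differed by at least 2-fold between ibrutinib 1 and vehicle 2, in either direction. The counts at any fold have no share over all genes here. The median difference between ibrutinib 1 and vehicle 2 was 0.05 over the higher genes and 0.02 over the lower genes, next to 0.02 over all genes. These pairs carry no test.

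**Figure D2:**
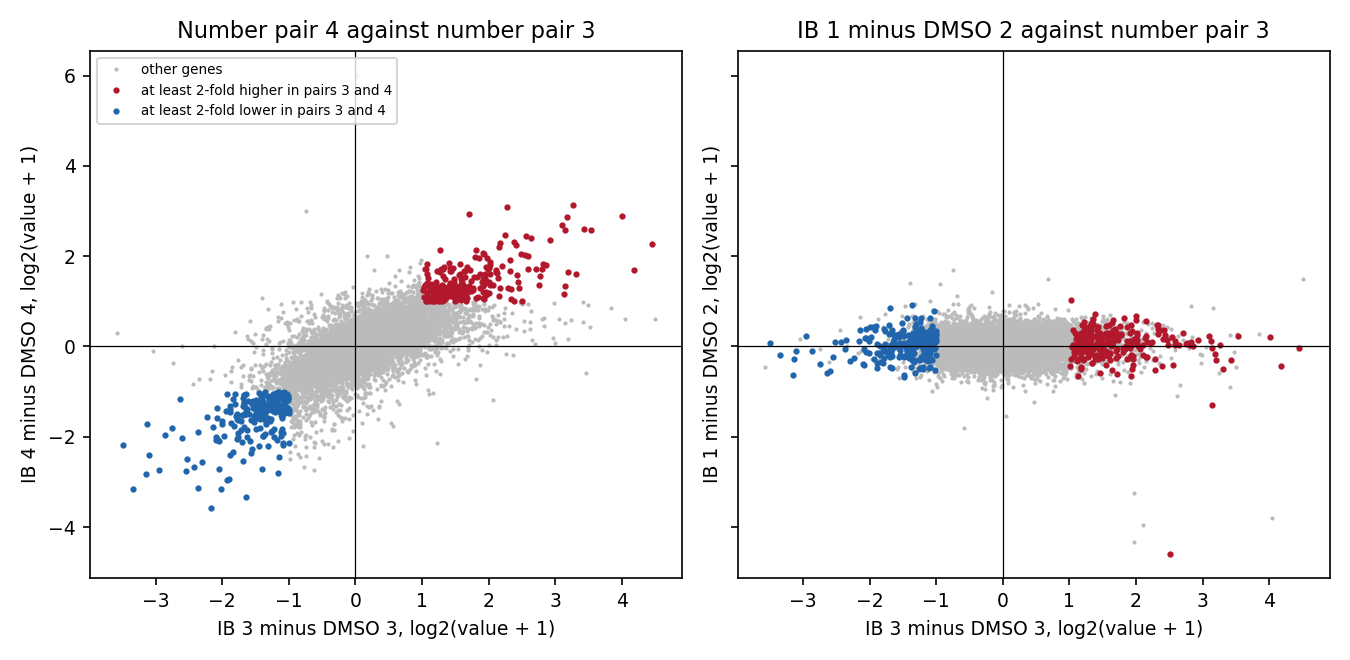
Difference between ibrutinib and vehicle, in log2(value + 1), for genes with a mean of at least 5, each point 1 gene. Both panels have number pair 3 on the horizontal axis, with number pair 4 (left) or ibrutinib 1 minus vehicle 2 (right) on the vertical axis. Red and blue points are genes at least 2-fold higher or lower in pairs 3 and 4; they spread along the diagonal on the left and most of them lie near 0 on the right, with the gene Gm10800 at -4.59 as the point farthest from it.

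The target kinase itself did not separate the treatments. Btk (ENSMUSG00000031264, chromosome X of GRCm38 from 134542336 to 134583570) had values of 73.1, 80.7 and 58.6 in vehicle and 72.9, 107 and 51.8 in ibrutinib, a log2 difference of 0.08 (standard error 0.30), and its direction turned without rescaling, to -0.29. Of 14 kinases that ibrutinib is known to bind, 11 were measured, and 0 lay apart between treatments or differed 2-fold in both pairs. Their median difference was -0.13, with -0.05 in pair 3 and -0.18 in pair 4. Among them Jak3, a cytokine receptor kinase, had values of 30.5, 65.6 and 116 in vehicle and 36.5, 60.3 and 49.9 in ibrutinib. T-cell markers (15 genes), whose cells share some of these kinases, summed to 256 and 702 in vehicle 3 and 4 and to 288 and 881 in ibrutinib 3 and 4, and their part in the kinase values was not tested.

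Receptor chains, proximal kinases and adaptors (30 of 31 measured) had a median difference of 0.07, next to 0.05 over all genes, with 0.30 in pair 3 and -0.10 in pair 4, and 0 of them lay apart between treatments. The member with at least 2-fold lower values in both pairs was Pik3ap1, which links the receptor to PI3K, with 110.3, 77.7 and 104 in vehicle and 120.4, 31.9 and 41.1 in ibrutinib. It was -1.26 in pair 3 and -1.32 in pair 4, and 0.13 between ibrutinib 1 and vehicle 2. Shb, an adaptor, had low values of 2.05, 0.338 and 1.46 in vehicle and 3.14, 1.45 and 3.15 in ibrutinib that overlapped between treatments.

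Immediate-early genes of BCR signaling held some of the largest negative differences within the pairs. Of 20 genes measured, 0 lay above and 2 below vehicle without overlap, and 3 were at least 2-fold higher and 4 at least 2-fold lower in both pairs (Dusp2, Egr2, Egr3 and Nr4a1). Over all genes the shares were 4.18% higher and 2.92% lower without overlap, and 1.88% higher and 1.62% lower by at least 2-fold in both pairs. These are the background for every list. Counts of genes higher or lower in both pairs at any fold have no such share here. The list's median difference was -0.10, with -0.38 in pair 3 and -0.09 in pair 4, and it turned to 0.27 without vehicle 2 and to 0.12 without ibrutinib 3 or ibrutinib 4, so its members had no common direction. Egr2 (ENSMUSG00000037868, chromosome 10 of GRCm38 from 67535475 to 67542188), a zinc-finger factor induced through ERK, had values of 2.25, 11 and 6.21 in vehicle and 2.06, 0.362 and 0.117 in ibrutinib. All 3 ibrutinib values lay below all vehicle values, and vehicle 2 and ibrutinib 1 sat side by side between the others. Its log2 difference was -1.97 (standard error 0.62), with -3.14 in pair 3 and -2.69 in pair 4, and limma gave an adjusted p of 1, as for every gene named here. Nr4a1 (ENSMUSG00000023034, chromosome 15 of GRCm38 from 101254269 to 101274795), the orphan receptor Nur77 used as a reporter of receptor signaling, had values of 14.2, 20.2 and 13.2 in vehicle and 12.5, 1.08 and 0.583 in ibrutinib, and the treatments again did not overlap. Differences of Nr4a1 were -2.23 (standard error 0.85) over 6 libraries, and -3.35 in pair 3 and -3.16 in pair 4, against -0.18 between ibrutinib 1 and vehicle 2.

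Egr3 had values of 0.921, 13.2 and 2.19 in vehicle and 0.967, 0.121 and 0 in ibrutinib and followed Egr2 in pairs 3 and 4. Dusp2, a phosphatase that acts on ERK, had values of 26.6, 16.5 and 15 in vehicle and 36.3, 3.38 and 3.85 in ibrutinib. Egr1, the best known member of the family, had values of 27, 7.7 and 1.83 in vehicle and 43.2, 0.964 and 0.933 in ibrutinib, was -2.15 in pair 3 and -0.55 in pair 4, and was highest in the 2 libraries rich in granulocyte and erythroid transcripts. Without vehicle 2 its difference over the groups turned from -0.68 to 0.15. The genes with at least 2-fold higher values in both pairs were Atf3, Dusp1 and Klf6, which other stresses also induce. Klf6 had values of 312, 91 and 84.2 in vehicle and 296, 211 and 229 in ibrutinib and Dusp1 of 50.04, 2.2 and 3.47 in vehicle and 66.9, 6.63 and 8.75 in ibrutinib, both highest in vehicle 2 and ibrutinib 1.

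Promoter sequence was examined for 4 lists, the immediate-early genes and the MYC, FOXO and unfolded protein response genes below. The lists were drawn up by pathway, partly from known targets of the factors concerned. A share of an element above that of all genes is therefore no evidence about ibrutinib. The immediate-early gene Egr1 was not searched, because its promoter window was among those left out. Whether Egr1 carries a CArG box is therefore not known from the counts that follow. A CArG box, the site bound by serum response factor, stood in the window from 250 bases before to 50 bases after a start site in 1 of the 17 listed genes with a RefSeq promoter (5.88%) and in 161 of 10259 measured genes with one (1.57%). The listed gene was Egr2, with a box before each of 2 alternative start sites, shown with the box in capitals on the plus strand of GRCm38.p6, at chr10:67537469-67537528 and chr10:67537772-67537831.
Egr2, upstream start: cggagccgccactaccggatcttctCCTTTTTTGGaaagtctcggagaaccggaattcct
Egr2, downstream start: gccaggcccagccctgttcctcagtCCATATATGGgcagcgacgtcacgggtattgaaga

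Later receptor targets and inhibitory receptors included further genes that were low in ibrutinib 3 and 4. Of 28 late-response and feedback genes measured, 0 were higher and 2 lower without overlap (background 4.18% and 2.92%), with a median difference of -0.18 that was -0.23 in pair 3 and -0.30 in pair 4. Cd72 (ENSMUSG00000028459, chromosome 4 of GRCm38 from 43446462 to 43454628), a B-cell co-receptor that recruits the phosphatase SHP-1, had values of 59, 101 and 77.7 in vehicle and 55, 10.8 and 13.8 in ibrutinib. Ibrutinib values lay below vehicle values, narrowly so in ibrutinib 1 against vehicle 2, and the difference was -1.87 (standard error 0.62), with -3.11 in pair 3 and -2.41 in pair 4. Ptpn6 (ENSMUSG00000004266, chromosome 6 of GRCm38 from 124720707 to 124738714) encodes SHP-1 itself and had values of 297, 518 and 517 in vehicle and 318, 95.3 and 80.6 in ibrutinib. Ibrutinib 3 and 4 lay under every vehicle library while ibrutinib 1 lay above vehicle 2, so the groups overlapped, and the pairs gave -2.43 and -2.67. Bcl2a1b, a survival gene of the BCL2 family induced by NF-κB, had values of 10.4, 22.1 and 21.3 in vehicle and 8.22, 9.64 and 6.77 in ibrutinib, with all ibrutinib values lower. It shares sequence with near-identical copies (Bcl2a1a and Bcl2a1d, not analysed here), so its values are uncertain. Cd83, an activation marker, had values of 37.9, 185 and 85 in vehicle and 34.1, 50.02 and 25.7 in ibrutinib. Cd69, another activation marker, had values of 14, 12.5 and 20.8 in vehicle and 12.5, 42.9 and 21.2 in ibrutinib and was not lower.

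The 21 inhibitors of BCR signaling had a median difference of 0.01, with 0.0038 in pair 3 and -0.26 in pair 4, and besides Cd72 and Ptpn6 only Lilrb4 was at least 2-fold lower in both pairs. Lilrb4, a receptor found on myeloid cells too, had values of 347, 13.3 and 28.1 in vehicle and 232, 4.7 and 10.5 in ibrutinib, by far the highest in vehicle 2 and ibrutinib 1. Among 26 NF-κB subunits and feedback targets, 1 was higher and 0 lower without overlap (background 4.18% and 2.92%), and 3 were at least 2-fold lower in both pairs (Nfkbid, Nfkbie and Tnf; background 1.62%). The median was -0.14, with 0.09 in pair 3 and -0.56 in pair 4. Nfkbid, a nuclear IκB protein, had values of 36.3, 136 and 79.2 in vehicle and 43.6, 42.9 and 29.4 in ibrutinib, and Tnf, the cytokine, had 37.3, 9.05 and 25.3 in vehicle and 51.1, 1.69 and 2.45 in ibrutinib. Map3k14, the NIK kinase of the alternative pathway, had values of 32.4, 35.7 and 38.4 in vehicle and 39, 55.1 and 44.7 in ibrutinib and was the 1 member higher without overlap, a share under the background.

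Of 25 cytokines and chemokines measured, 1 was lower without overlap (background 2.92%) and 4 were at least 2-fold lower in both pairs (background 1.62%; Il10, Il15, Tnf and Tnfsf9). Il10, which TCL1 leukemia cells and B-1 cells secrete, had values of 2.66, 49 and 95.8 in vehicle and 3.75, 16.8 and 31.3 in ibrutinib, lowest in vehicle 2 and ibrutinib 1. Tnfsf9, the ligand of 4-1BB, had values of 1.02, 4.99 and 3.56 in vehicle and 0.967, 1.69 and 0.70 in ibrutinib. Xcl1, a lymphotactin of T and NK cells, was lower in ibrutinib without overlap but at low values, with 0.819, 1.61 and 1.1 in vehicle and 0.363, 0.241 and 0.117 in ibrutinib. The chemokines Ccl3 and Ccl4, which CLL cells release after BCR engagement, had values of 8.29, 2.03 and 0.822 in vehicle and 9.67, 0.362 and 0.467 in ibrutinib for Ccl3 and 3.79, 1.78 and 2.38 in vehicle and 5.8, 0.241 and 1.87 in ibrutinib for Ccl4. Both were lower in ibrutinib 3 than vehicle 3, and the direction over the groups turned for Ccl3 when vehicle 2 was left out, from -0.42 to 0.24.

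Genes of MYC and ribosome biogenesis were the list with the lowest median. All 30 were measured, 28 were lower in both pairs, 5 were lower without overlap (background 2.92%) and 10 at least 2-fold lower in both pairs (background 1.62%). The median difference was -0.69 over the 6 libraries, -0.91 in pair 3, -1.08 in pair 4 and 0.01 between ibrutinib 1 and vehicle 2. It kept its sign in all 20 alternative settings, between -1.05 and -0.44. Rrp12 (ENSMUSG00000035049, chromosome 19 of GRCm38 from 41862851 to 41896173), needed to export ribosomal subunits, had values of 13.7, 25.3 and 30.5 in vehicle and 13.2, 5.18 and 6.88 in ibrutinib. Its difference was -1.38 (standard error 0.45), and ibrutinib 3 and 4 held less than any other library. Polr1a, the largest subunit of RNA polymerase I, had values of 85.2, 125 and 129.8 in vehicle and 77.3, 65.6 and 70.3 in ibrutinib and did not overlap between treatments. Gnl3, a nucleolar GTPase, had values of 23.5, 49.5 and 53.1 in vehicle and 20.3, 17 and 20.6 in ibrutinib, with ibrutinib lower throughout. Polr1b, Nop58 and Dkc1 were lower in ibrutinib 3 and 4 than in vehicle 3 and 4 by at least 2-fold, but overlapped with vehicle 2. Myc itself (ENSMUSG00000022346, chromosome 15 of GRCm38 from 61985391 to 61990374) had values of 17.6, 62.1 and 71.2 in vehicle and 22.2, 31.3 and 19.8 in ibrutinib. Vehicle 3 and 4 were the highest libraries, vehicle 2 was the lowest, and the difference was -0.81 (standard error 0.56), with -0.96 in pair 3 and -1.79 in pair 4.

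The E-box CACGTG, the sequence MYC binds, read on both strands (it is its own reverse complement), was found in the promoter window of 6 of the 24 listed genes with a RefSeq promoter (25%) and in 1175 of 10259 measured genes (11.5%). A gene counts if any of its windows holds the letters, and a match is no evidence of binding. The windows of Nop2 (a nucleolar methyltransferase, chr6:125131798-125131853, plus strand), which was at least 2-fold lower in both pairs, and of Hspd1 (a mitochondrial chaperone, chr1:55088293-55088348, minus strand) show it in capitals.
Nop2: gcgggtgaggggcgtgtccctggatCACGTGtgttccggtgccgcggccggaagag
Hspd1: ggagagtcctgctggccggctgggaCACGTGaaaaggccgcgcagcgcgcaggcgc

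Cell cycle genes were lower in the same pairs. Of 32 G1/S genes, 26 were lower in both pairs and 0 lay apart between treatments; their median difference was -0.68, with -0.47 in pair 3, -1.64 in pair 4 and 0.11 between ibrutinib 1 and vehicle 2. For the 32 G2/M genes, 30 were lower in both pairs and the median differences were -0.63, -0.83, -0.95 and -0.06. With a library left out, the G1/S median lay between -1.09 (without ibrutinib 1) and -0.42 (without ibrutinib 3), and the G2/M median between -1.34 (without ibrutinib 1) and -0.07 (without ibrutinib 3). Uhrf1, which maintains DNA methylation at replication, had values of 44.2, 34.8 and 94 in vehicle and 48, 6.99 and 7.0 in ibrutinib, with ibrutinib 3 and 4 far below the other 4 libraries. Fen1, a flap endonuclease, had values of 31, 22.6 and 49.7 in vehicle and 29.3, 9.88 and 11.9 in ibrutinib. Top2a, topoisomerase II of dividing cells, had values of 402, 127 and 504 in vehicle and 286, 54.8 and 183 in ibrutinib, and its groups overlapped widely. Mki67, the Ki-67 antigen, had values of 916, 198 and 428 in vehicle and 645, 162 and 299.9 in ibrutinib, and its difference of -0.44 (standard error 0.73) turned to 0.11 without vehicle 2. Ndc80, a kinetochore gene, was the G2/M member that was higher in both pairs, at 25.3, 13.8 and 23.6 in vehicle and 23, 30.01 and 34 in ibrutinib.

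Cyclins and their inhibitors had a median of -0.02 over 14 genes. Ccnd2, the D-type cyclin of B-1 cells, had values of 67.5, 148 and 202 in vehicle and 68.8, 102 and 72.5 in ibrutinib, and Cdk4, its partner kinase, 43.7, 100.4 and 105 in vehicle and 52.8, 43.4 and 51 in ibrutinib. Both were highest in vehicle 3 and 4, and neither separated the treatments. Cdkn1b (ENSMUSG00000003031, chromosome 6 of GRCm38 from 134920401 to 134925513) encodes the inhibitor p27 and was higher in ibrutinib without overlap, at 176, 144 and 134 in vehicle and 177, 263 and 283 in ibrutinib. The difference between ibrutinib 1 and vehicle 2 was 0.01, so the separation there was narrow.

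**Figure D3:**
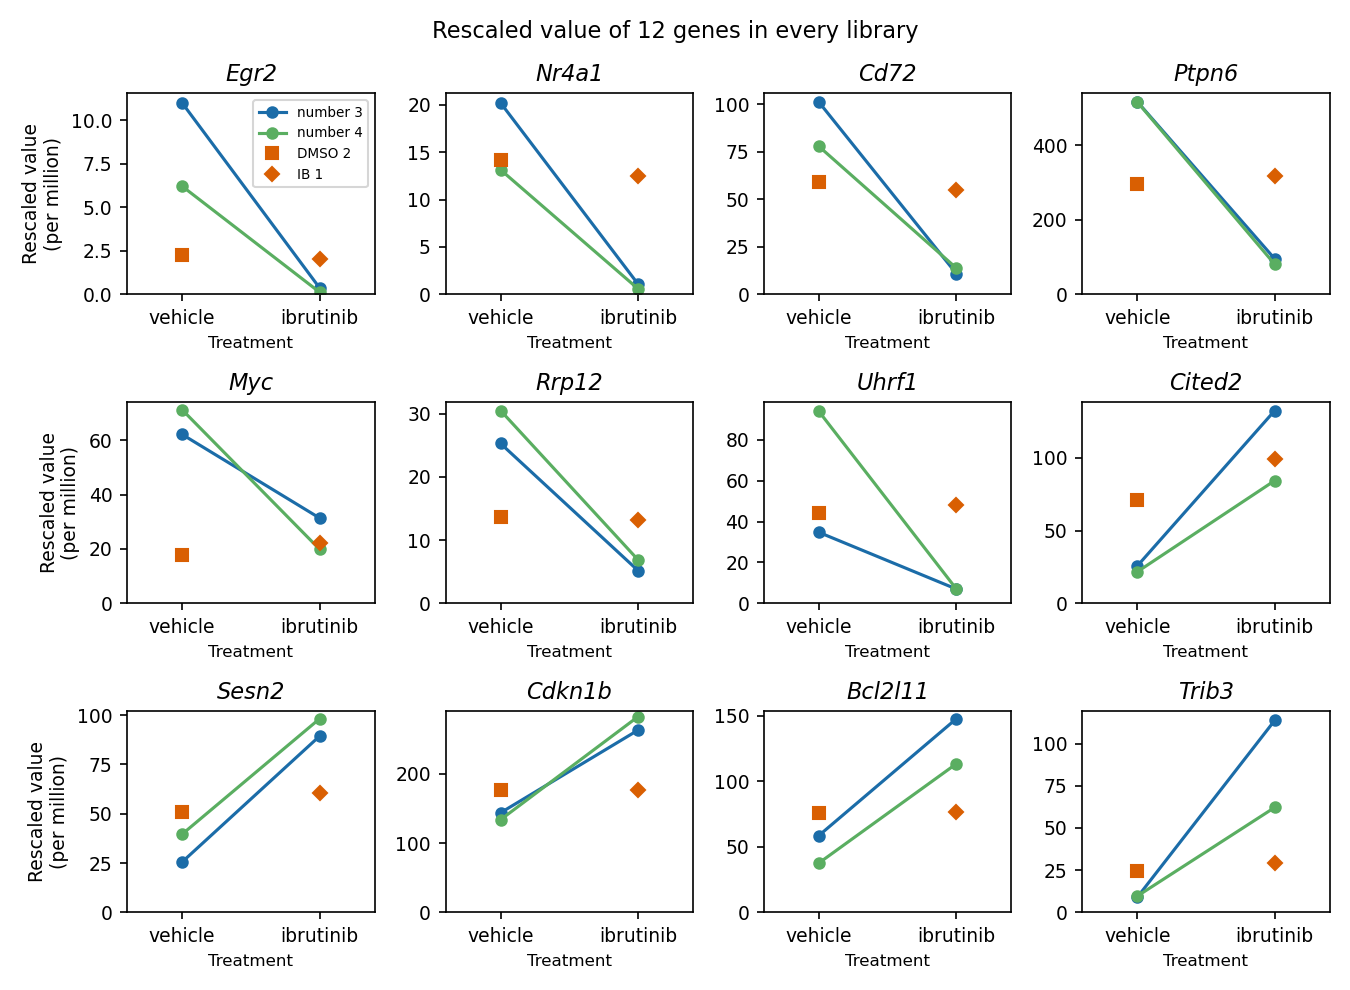
Rescaled value in CPM (vertical linear axis from 0) of 12 genes in vehicle and ibrutinib, 1 point per library, with lines joining number pairs 3 and 4. The lines of Egr2, Nr4a1, Cd72, Ptpn6, Myc, Rrp12 and Uhrf1 go down and those of Cited2, Sesn2, Cdkn1b, Bcl2l11 and Trib3 go up, while vehicle 2 and ibrutinib 1 are close to each other in panels such as Egr2, Cd72 and Cdkn1b.

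Targets of FOXO and KLF2 were the list with the highest median, all but level with the Map3k15 and phospholipase A2 list below (0.62, with 1.38 in pair 3). Of 25 genes measured, 21 were higher in both pairs, 5 were higher without overlap (background 4.18%) and 5 at least 2-fold higher in both pairs (background 1.88%). The median difference was 0.62, with 0.90 in pair 3, 0.73 in pair 4 and 0.16 between ibrutinib 1 and vehicle 2, and it stayed between 0.16 and 0.89 in 20 alternative settings. Cited2 (ENSMUSG00000039910, chromosome 10 of GRCm38 from 17723218 to 17725674), a co-regulator of CBP and p300, had values of 70.9, 25.6 and 21.6 in vehicle and 99.1, 132 and 84.3 in ibrutinib, above all vehicle values in each ibrutinib library. Its difference was 1.57 (standard error 0.48), with 2.33 in pair 3 and 1.91 in pair 4 and 0.48 between ibrutinib 1 and vehicle 2. Sesn2 (ENSMUSG00000028893, chromosome 4 of GRCm38 from 132492032 to 132510501), an inhibitor of mTORC1 that p53 and ATF4 also induce, had values of 50.6, 25.5 and 39.6 in vehicle and 60.3, 89.4 and 98.2 in ibrutinib. Ypel3, a growth suppressor, had values of 78.6, 55.7 and 42.7 in vehicle and 94.2, 152 and 99.8 in ibrutinib, and Ccng2, a cyclin linked to cell cycle exit, 94.8, 75.6 and 68.2 in vehicle and 101, 98 and 114 in ibrutinib. With Cdkn1b, these make up the 5 genes without overlap. Klf2, itself a FOXO1 target, was lower in both pairs, at 67.3, 95.4 and 94.2 in vehicle and 75.3, 44.4 and 56.8 in ibrutinib. Foxo1 had values of 46.5, 74 and 73.8 in vehicle and 49.3, 298 and 130.3 in ibrutinib, with the highest value in ibrutinib 3.

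The FOXO element GTAAACA, searched on both strands, was in the promoter window of 3 of 19 listed genes (15.8%) and of 313 of 10259 measured genes (3.05%). It is in capitals for Ypel3 (chr7:126776978-126777004, plus strand), just after the RefSeq start site, and for Txnip, an inhibitor of thioredoxin and glucose uptake (chr3:96557811-96557867, plus strand), whose values were 337, 336 and 294 in vehicle and 386, 254 and 235 in ibrutinib. Sesn1, the third gene with it, differed by 0.22 and 0.15 in the pairs.
Ypel3: tggtctcggtGTAAACAagtcgaggcg
Txnip: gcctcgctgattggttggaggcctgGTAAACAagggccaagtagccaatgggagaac

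Among the 14 BCL2 family genes measured, 2 were higher and 1 lower without overlap (background 4.18% and 2.92%). Bcl2l11 (ENSMUSG00000027381, chromosome 2 of GRCm38 from 128126038 to 128162547) encodes the BH3-only protein BIM, a FOXO target that promotes apoptosis, and had values of 76.1, 58.6 and 37.6 in vehicle and 76.9, 148 and 113 in ibrutinib. Ibrutinib values lay above vehicle values, but ibrutinib 1 exceeded vehicle 2 by under 1 unit, and the difference was 0.97 (standard error 0.36), with 1.32 in pair 3 and 1.57 in pair 4. Bbc3, which encodes PUMA, had values of 30.1, 8.63 and 17.3 in vehicle and 36.1, 26.2 and 35.8 in ibrutinib, and Bax, the pore-forming member, 30.8, 23.2 and 33.5 in vehicle and 40.9, 36.4 and 38.4 in ibrutinib. Bcl2 had values of 38.4, 177 and 177 in vehicle and 33.4, 152 and 147 in ibrutinib, which followed the split between vehicle 2 and ibrutinib 1 on one side and numbers 3 and 4 on the other.

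Targets of p53 showed no common direction, with 14 higher and 9 lower in both pairs. Of 32 measured, 2 were higher and 1 lower without overlap, near the background of 4.18% and 2.92%, and the median difference was 0.09, next to 0.05 over all genes, with 0.37 in pair 3 and 0.02 in pair 4. At least 2-fold higher values in both pairs were seen for 4 genes (background 1.88%), Bbc3, Rrm2b, Sesn2 and Gadd45a. At least 2-fold lower values in both were seen for 0. Rrm2b, a subunit of ribonucleotide reductase that p53 and FOXO induce, had values of 37.8, 41.4 and 42.1 in vehicle and 32.9, 123 and 128 in ibrutinib, and Gadd45a 54.7, 4.4 and 7.58 in vehicle and 55.7, 29.2 and 34.6 in ibrutinib. Aen, an exonuclease, was lower without overlap at 25.9, 27.7 and 38.3 in vehicle and 23.3, 15.7 and 23.7 in ibrutinib. Trp53 had values of 26.6, 40.1 and 47.8 in vehicle and 34.3, 42.4 and 26.5 in ibrutinib, a difference of -0.13 (standard error 0.30) that was within the spread of either group.

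Genes of the unfolded protein response and of amino acid stress held some of the largest positive differences within the pairs. Of 22 measured, 1 was higher and 0 lower without overlap (background 4.18% and 2.92%), 5 were at least 2-fold higher in both pairs (background 1.88%) and 0 lower. The median difference was 0.17, with 0.41 in pair 3 and 0.30 in pair 4, and it was -0.19 without rescaling. Trib3 (ENSMUSG00000032715, chromosome 2 of GRCm38 from 152337422 to 152344032), a pseudokinase induced by ATF4, had values of 24.6, 8.88 and 9.59 in vehicle and 29.1, 114 and 62.2 in ibrutinib. Every ibrutinib value lay above every vehicle value, with a difference of 2.12 (standard error 0.61), 3.54 and 2.58 in the pairs and 0.24 between ibrutinib 1 and vehicle 2. Ddit3, the CHOP factor downstream of ATF4, had values of 47.3, 21.7 and 17.4 in vehicle and 47.3, 84.7 and 76.3 in ibrutinib, equal in vehicle 2 and ibrutinib 1. Chac1, a glutathione-degrading enzyme, had values of 16.6, 15.3 and 22.4 in vehicle and 19.6, 41.5 and 52.5 in ibrutinib. Sel1l, of the machinery that removes misfolded proteins, had 249, 189.6 and 293 in vehicle and 231, 478 and 619.6 in ibrutinib. Ppp1r15a, which reverses the block of translation, was far higher in vehicle 2 and ibrutinib 1 than elsewhere, at 485, 11.1 and 14.2 in vehicle and 537, 39.1 and 40.6 in ibrutinib.

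The ATF4 element TGATGNAA, searched on both strands, stood in the promoter window of 4 of 20 listed genes (20%) and of 295 of 10259 measured genes (2.88%). Both genes shown, Trib3 (chr2:152344029-152344056, minus strand, just after the RefSeq start site) and Chac1 (chr2:119351024-119351081, plus strand), were at least 2-fold higher in both pairs, and the element is in capitals, read as its reverse complement. The other genes with it, Asns and Herpud1, differed less, by 0.07 and 0.45 and by 0.72 and 0.73 in pairs 3 and 4.
Trib3: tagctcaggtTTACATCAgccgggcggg
Chac1: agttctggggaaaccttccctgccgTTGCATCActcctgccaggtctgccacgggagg

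Of 9 CLL and B-1 markers measured, 8 were lower in both pairs and 1 was lower without overlap (background 2.92%). The latter was Fcer2a, the CD23 receptor, at 7.78, 25.8 and 27.5 in vehicle and 6.29, 6.03 and 2.68 in ibrutinib. Cd5, the T-cell antigen on B-1 and CLL cells, had values of 12, 39.8 and 52.8 in vehicle and 15.8, 29.6 and 39.3 in ibrutinib, low in vehicle 2 and ibrutinib 1, and its difference of -0.15 (standard error 0.62) turned to 0.20 without ibrutinib 1. Of 24 homing and adhesion receptors, 0 lay apart between treatments. Cxcr4, the receptor for CXCL12, had values of 318, 96.5 and 97.7 in vehicle and 357, 292 and 179.6 in ibrutinib, and Selplg, a selectin ligand, 175, 78.1 and 118 in vehicle and 231, 134 and 200.2 in ibrutinib. S1pr4, a sphingosine phosphate receptor, had values of 48.2, 70.6 and 54.6 in vehicle and 75.8, 63 and 88.5 in ibrutinib. Cxcr4 and Selplg were higher in both pairs. The 15 genes of MHC class II presentation had a median of -0.32, with -0.33 in pair 3 and -0.78 in pair 4, which turned to 0.07 without vehicle 3 and to 0.11 without ibrutinib 1, and Ctss, the cathepsin that trims the invariant chain, was lower without overlap at 438, 353 and 319 in vehicle and 282, 281 and 261 in ibrutinib. Rfxank, a regulator of class II genes, had values of 14.7, 24.8 and 31.7 in vehicle and 21.3, 45.6 and 37.6 in ibrutinib.

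Of 29 interferon-stimulated genes, 1 was lower without overlap, near the background of 2.92%. That was Ifit1, at 5.42, 5.25 and 6.85 in vehicle and 2.66, 1.33 and 3.97 in ibrutinib. Mx2 had 2.05, 2.12 and 1.64 in vehicle and 1.81, 0.362 and 0.467 in ibrutinib. The 25 genes of sterol and fatty acid synthesis had a median of 0.13, with Fdft1, squalene synthase, at 18.4, 15.4 and 15.7 in vehicle and 20.3, 22.1 and 28.9 in ibrutinib and higher without overlap, and Stard4, a sterol carrier, at 32.5, 25.9 and 29.7 in vehicle and 31.7, 41.6 and 36.4 in ibrutinib. Scd1, a fatty acid desaturase, was at least 2-fold lower in both pairs, at 39.2, 505 and 399.6 in vehicle and 31.4, 199 and 133 in ibrutinib. Glucose transport and glycolysis (25 genes) had a median of -0.03. Pfkfb3, which raises glycolytic flux, had values of 81.1, 55.9 and 58.7 in vehicle and 89.5, 123 and 67.8 in ibrutinib and Tpi1, a glycolytic isomerase, 66.8, 85.2 and 82.2 in vehicle and 86.1, 40.5 and 42 in ibrutinib. Of 27 B-lineage transcription factors, 1 was higher without overlap, near the background of 4.18%. That was Bach2, a repressor of plasma cell fate, at 54.5, 51 and 32.6 in vehicle and 60.6, 112 and 62.3 in ibrutinib.

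**Figure D4:**
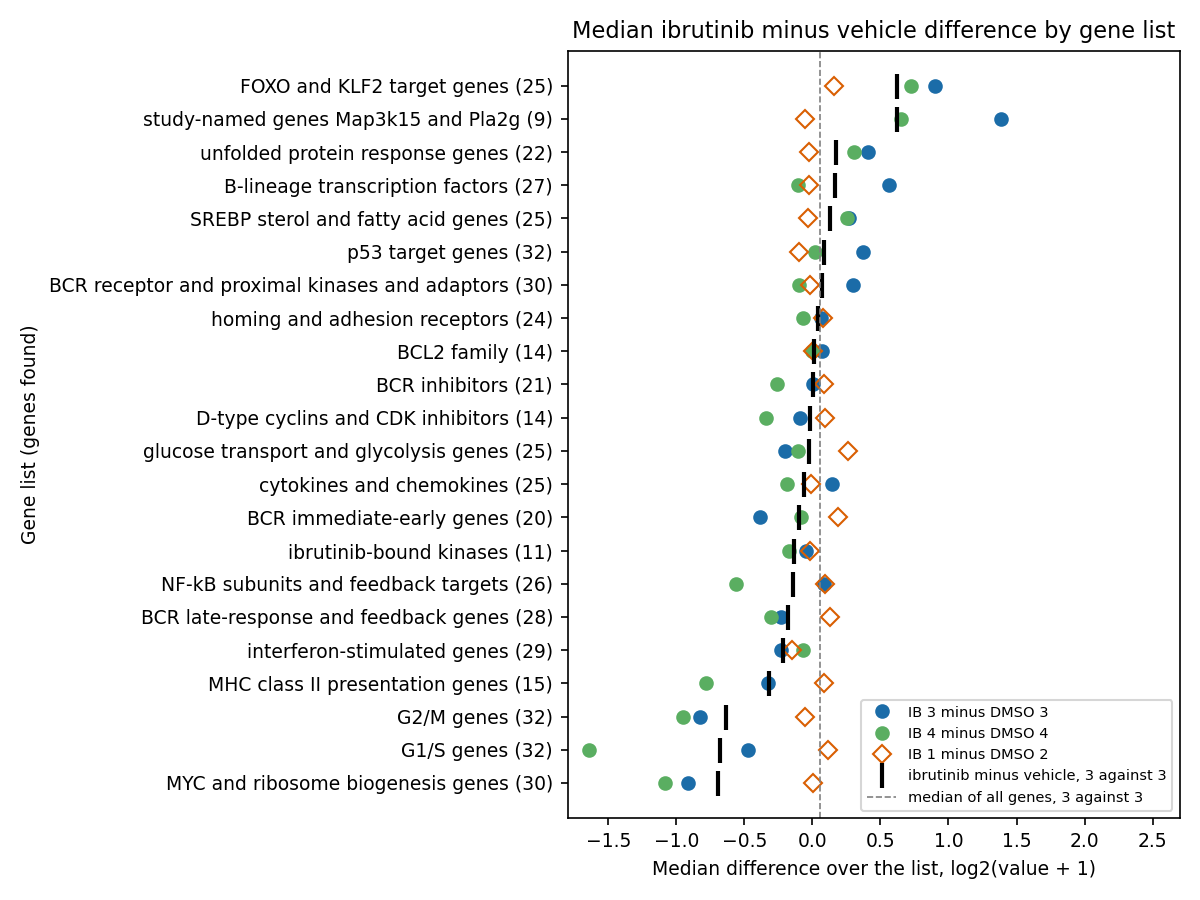
Median difference between ibrutinib and vehicle, in log2(value + 1) (horizontal axis), for 22 gene lists (vertical axis, genes measured in parentheses), in number pair 3, number pair 4, ibrutinib 1 minus vehicle 2 (open diamonds) and over all 6 libraries (black bars). MYC and ribosome biogenesis genes have the lowest black bar, with -0.91 and -1.08 in the pairs, and FOXO and KLF2 targets lie at 0.90 and 0.73, while the diamonds stay between -0.15 and 0.26.

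The study singled out Map3k15, a kinase of the MAP3K family, and phospholipase A2 genes. It reported them as raised, by RT-PCR, in tissue of Eμ-TCL1;p53R172H/+ mice dosed with ibrutinib. The values here are from p53-intact cells treated in culture, so genotype, treatment and assay differ. Map3k15 (ENSMUSG00000031303) lies on chromosome X of GRCm38 from 159988433 to 160123351 and had values of 30.3, 22.8 and 13.7 in vehicle and 22.4, 46.4 and 35 in ibrutinib. Ibrutinib 3 and 4 were the highest libraries, ibrutinib 1 lay below vehicle 2 and vehicle 3, and the difference was 0.62 (standard error 0.39), with 1.0 in pair 3 and 1.29 in pair 4. Of 17 listed genes, Map3k15 included, 9 were measured, 0 lay apart between treatments, and 6 were higher in both pairs. Pla2g2d, a secreted phospholipase, had the second lowest p of the list, with values of 0, 0.254 and 0.548 in vehicle and 0, 12.8 and 1.75 in ibrutinib, so that its difference rests on ibrutinib 3. In cultured Eμ-TCL1;p53R172H/+ cells the Map3k15 difference was 1.45. The study chose these genes on its own samples, and they are no independent evidence of a direction.

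Genes among the 5 with the lowest p in each direction, none of them past the threshold, also differed between ibrutinib 1 and vehicle 2. Higher in ibrutinib was Klhl21, an adaptor of a ubiquitin ligase, with 29.2, 18.8 and 16.4 in vehicle and 39.9, 51.8 and 54.8 in ibrutinib and a difference of 1.18 (standard error 0.28). Sh2b1, an adaptor of receptor kinases, had 36.8, 33.4 and 34.6 in vehicle and 56.6, 64.1 and 50.6 in ibrutinib, Rabac1 47.3, 42 and 37.5 in vehicle and 65, 65.2 and 77.9 in ibrutinib and Mettl7a1 34.4, 21 and 26.9 in vehicle and 43.3, 59.5 and 53.7 in ibrutinib. In these 4 genes ibrutinib 1 exceeded vehicle 2 by 0.32 to 0.61 on the log2 scale. Lower in ibrutinib were Tlr7, the endosomal sensor of single-stranded RNA, with 64.2, 52.5 and 71.3 in vehicle and 41, 31 and 35 in ibrutinib and a difference of -0.79 (standard error 0.20), and Stap1, an adaptor that BCR-associated kinases phosphorylate, with 79.2, 88.9 and 92.4 in vehicle and 63.7, 51.1 and 53.1 in ibrutinib. Cox7b, a subunit of cytochrome c oxidase, had 47.8, 58 and 61.4 in vehicle and 34.3, 26.6 and 36.6 in ibrutinib, Pbdc1 25, 33.3 and 31.6 in vehicle and 17.5, 15.4 and 18.1 in ibrutinib and Gm12346 91.7, 111 and 140.4 in vehicle and 67.3, 56.9 and 70.00 in ibrutinib. In all 9 genes given here the values of the treatments did not overlap. This and the differences between ibrutinib 1 and vehicle 2 are descriptions, since the genes were chosen by their p over these libraries.

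Against the p53-mutant cells, the difference made by treatment was tested as an interaction over all 15 libraries, rescaled together. At an adjusted p under 0.05, 0 of 15851 genes were called (0%), and unadjusted p-values under 0.05 were found for 71 genes (0.448%). Differences between ibrutinib and vehicle in Eμ-TCL1;p53R172H/+ cells (4 and 5 libraries) are given beside those of Eμ-TCL1 cells. They were -4.59 and -1.97 for Egr2, -4.06 and -2.23 for Nr4a1, -2.66 and -1.87 for Cd72, and -2.55 and -1.67 for Ptpn6. Within pairs 3 and 4 of Eμ-TCL1 cells the differences were -3.14 and -2.69 for Egr2, -3.35 and -3.16 for Nr4a1, -3.11 and -2.41 for Cd72 and -2.43 and -2.67 for Ptpn6, so for Cd72 and Ptpn6 the order of the genotypes depends on which libraries enter. The p53-mutant and Eμ-TCL1 differences over all libraries were 1.31 and 2.12 for Trib3 and 0.56 and 1.57 for Cited2. The median over MYC and ribosome biogenesis genes was -0.95 and -0.69, over FOXO and KLF2 targets 0.85 and 0.62, and over p53 targets 0.21 and 0.09. The test did not separate the genotypes in any of these genes, which does not show that they responded alike.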

How the data were processed

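RNA-Seq was examined in 6 libraries of cultured cells from Eμ-TCL1 spleens, which the study describes as malignant B-cells. The 9 Eμ-TCL1;p53R172H/+ libraries were added for the interaction. Per the labels, the authors' processing used TopHat2 2.0.12, SAMtools 0.1.19, HTSeq and edgeR on GRCm38 (mm10). The deposited signal values are read counts that the authors filtered for low genes and scaled with edgeR to CPM, in separate tables for vehicle and ibrutinib. The deposited values do not give the sequencing depth, so precision is judged from the spread between libraries.

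Genes in both tables were kept, mitochondrial genes (symbols starting with mt-) were dropped, and each column was rescaled so that its median log2 ratio to the gene-wise mean was 0 over genes with a mean of at least 5. Treatments were compared with limma 3.58.1 in R 4.3.3 (eBayes with a trend) on log2(value + 1) without a replicate block, with Benjamini-Hochberg adjustment over all genes and a threshold of 0.05. All 15 libraries entered the fit of the genotype-by-treatment interaction. Differences within number pairs 3 and 4, and between ibrutinib 1 and vehicle 2, were computed as values without a test; the last was added after seeing the data. The fit was run on simulated data with known changes and independent noise in each gene, as a check of the code. No power at the spread of these libraries is given. Gene coordinates came from GENCODE vM21 and promoter windows from RefSeq, both on GRCm38, and figures were drawn with matplotlib 3.10.9. Promoter windows on chromosome 18 were left out, so Egr1, which lies there, was not searched. Of the 15851 genes, 10259 matched one of the remaining windows by symbol.

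The genes named are, per direction, the 5 with the lowest p among genes with a mean of at least 1 (fewer than 5 passed the threshold), the 2 with the lowest p of each of 22 gene lists, a set of fixed genes (among them Btk, Egr1, Myc, Cd69 and Bcl2), and checks by Xist, Ddx3y and the leading immunoglobulin variable genes. A few genes that this rule names are not reported here. Other list members were named after their values were seen. The members and lists were chosen with earlier results of these data known. Alternatives were pseudocounts of 0.1 and 5, means of at least 1 and 5, quantile normalization, the values as deposited, factors from genes with a mean of at least 50, mitochondrial genes kept, sample quality weights, all 15 libraries in the fit, a replicate block, only number pairs 3 and 4 with and without that block, each library left out, and no trend.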

Additional observations from a re-analysis of the deposited data

How the results depend on the processing

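No gene was called between ibrutinib and vehicle in any of the 20 alternatives, nor for the interaction in any alternative run, so these counts stayed at 0. The numbers 3 and 4 are joined by no label. Over genes, deviations from the group means correlated at 0.837 in pair 3 and 0.848 in pair 4. They correlated at 0.903 between ibrutinib 1 and vehicle 2, which share no number. The values were 0.519 between vehicle 3 and ibrutinib 4 and 0.325 between vehicle 4 and ibrutinib 3. The second heavy-chain gene was shared in pair 3, in pair 4 (at very low values) and by ibrutinib 1 and vehicle 2. This is a hint from the data alone, and a weak one in pair 4. With the replicate block 0 genes were called as well (limma, smallest adjusted p 0.104, 4480 genes at an unadjusted p under 0.05, against 325 without it). In that fit vehicle 2 and ibrutinib 1 each stand alone, so the difference rests on pairs 3 and 4. Those pairs alone with the block gave 4459 such genes. The interaction with a block gave 0 calls and 775 such genes in place of 71. The unadjusted count was 2382 with sample quality weights (smallest adjusted p 0.217), 911 with the values as deposited, 1359 without vehicle 2, 908 without ibrutinib 1, and 50 to 174 when a library of number 3 or 4 was left out. Leaving out each library kept the called count at 0 to 0.

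Genes at least 2-fold higher in both pairs numbered 298 and those lower 256. They numbered 773 and 429 with a pseudocount of 0.1, 146 and 119 with a pseudocount of 5, and 116 and 838 with the values as deposited; those with other pseudocounts follow from how a pseudocount treats low genes and those as deposited from the scale factors. Of 79 named genes, 68 kept the sign of their difference in every alternative. Of 22 list medians, 6 did so (MYC and ribosome biogenesis, G1/S, G2/M, late-response, FOXO and KLF2, and the genes the study singled out), and 16 turned in at least 1. In the values as deposited, Stard4 turned to -0.053 and Btk to -0.29. With a library left out in turn, the lowest and highest values were -1.40 and 0.24 for Ccl3, -0.91 and 0.31 for Ccl4, -0.77 and 0.26 for Cd5, -0.99 and 0.11 for Mki67, -0.19 and 0.33 for Btk, -0.85 and 0.10 for Jak3, -2.18 and 0.15 for Egr1, -0.95 and 0.48 for Bcl2, -0.36 and 0.047 for Trp53, and -1.05 and 3.55 for Lyz2. The causes were not tested. The main limits are the separate scaling of the tables, the unknown depth, and 3 libraries per group, of which 1 in each stood apart.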

Other observations

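Chosen after the values were seen, the 10 genes per direction with the largest difference common to pairs 3 and 4, among genes with a mean of at least 5, included stress genes and surface receptors. Higher in ibrutinib 3 and 4 were Atf5, a stress-induced transcription factor, with 31.2, 47 and 26.9 in vehicle and 31.9, 459 and 245 in ibrutinib, Gdf15, a secreted stress cytokine, with 10.9, 0.677 and 1.19 in vehicle and 9.67, 14.2 and 15.1 in ibrutinib, and Hmox1, heme oxygenase, with 384, 19.3 and 15.3 in vehicle and 446, 326 and 119.7 in ibrutinib. Hmox1, Fam129a and Slc7a11 were higher still in vehicle 2 and ibrutinib 1. Slc7a11, a cystine transporter, had 238, 0.761 and 1.1 in vehicle and 243, 10 and 10.2 in ibrutinib, Atf3 had 52.6, 6.85 and 4.2 in vehicle and 39.2, 45.2 and 27.2 in ibrutinib and Fam129a 365, 26 and 20.3 in vehicle and 358, 237 and 125 in ibrutinib. By contrast Angptl6 had 3.07, 2.2 and 2.92 in vehicle and 3.75, 26.5 and 24.4 in ibrutinib, Soat2, a cholesterol acyltransferase, 18.3, 7.11 and 8.68 in vehicle and 14.8, 86.7 and 58.2 in ibrutinib, and Col11a2 13.9, 4.14 and 7.31 in vehicle and 15.6, 38.1 and 41.8 in ibrutinib, so these were highest in ibrutinib 3 and 4. Trib3 completes the 10. Macrophage and monocyte markers (18 genes) summed to 1392 and 1551 in vehicle 3 and 4 and 2577 and 2304 in ibrutinib 3 and 4, and granulocyte markers to 37.6 and 183, and 58.5 and 249; their part in these differences was not tested.

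Lower in ibrutinib 3 and 4, beside Nr4a1, Ptpn6 and Cd72, were Ccr1, a chemokine receptor, with 86.9, 55 and 52.8 in vehicle and 55.7, 5.3 and 6.65 in ibrutinib, Ly86, the MD-1 partner of the Toll-like receptor homologue RP105, with 38.7, 379 and 236 in vehicle and 30.9, 76.2 and 39.4 in ibrutinib, and Marcksl1, a substrate of protein kinase C, with 47.4, 62.6 and 68.3 in vehicle and 45.6, 11.3 and 6.88 in ibrutinib. Slc15a3, a lysosomal peptide transporter, had 41.9, 34.3 and 36.5 in vehicle and 35.5, 5.06 and 4.55 in ibrutinib, Slc2a6, a sugar transporter family member, 24.5, 21.4 and 26.9 in vehicle and 26.5, 2.89 and 3.97 in ibrutinib, BC035044 23.6, 25.4 and 25.9 in vehicle and 28, 2.41 and 3.03 in ibrutinib and the ion channel gene Trpm5 0.409, 30.5 and 8.86 in vehicle and 0.484, 1.81 and 1.17 in ibrutinib. Ccr1, Slc15a3, Slc2a6 and BC035044 were lower in ibrutinib 3 and 4 than in each of the other 4 libraries. These pairs carry no test.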
